A study of Mus musculus with 10 samples.

Results

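Mt1 and Mt2 encode the metallothioneins of the mouse liver, and they are 2 of the 14811 distinct gene entries in 10 tables of unique molecular identifier (UMI) counts from single hepatocytes. They were taken by name, as the entries mt1 and mt2, apart from the 13 mitochondrially encoded genes whose names begin with mt-. Both were chosen by the change of their level with the time of day in these same libraries, so their levels over time are described here without a test. Their position in the lobule was not used to pick them and was tested.

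Metallothioneins are small cytosolic proteins rich in cysteine that bind zinc and copper, buffer free zinc and take up cadmium. The liver is one of their main sites of synthesis. Transcription of both genes is driven by MTF1, a zinc-sensing factor that binds metal response elements (MREs), and is also raised by glucocorticoids, by cytokines of the acute phase and by fasting. In the liver lobule, blood flows from the portal end (periportal cells) to the central vein (pericentral cells), and hepatocytes express different genes along that way.

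The cells came from male C57BL/6 mice that were 3 months old and ate regular chow freely. The animals were anaesthetised with ketamine and xylazine, their livers were perfused with collagenase, hepatocytes were purified on Percoll, and each library was made with the 10x Chromium 3′ chemistry. Tissue was taken at 4 zeitgeber times (ZT), the hours counted from lights-on as the term is used in the field: 3 libraries at ZT0 (replicates A, B and C), 2 at ZT6 (A and B), 3 at ZT12 (A, B and C) and 2 at ZT18 (A and B). Whether each library came from a mouse of its own is not stated in the labels. The tests take the library as the replicate, and the spread between libraries may be partly technical. No group differs from another by treatment, genotype or diet in the labels.

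Mt2 and Mt1 lie next to each other on chromosome 8, both on the plus strand. In GENCODE M21 (GRCm38 coordinates, the assembly of mm10), Mt2 spans chr8:94172664-94173568 and Mt1 spans chr8:94179082-94180327, with 5513 bases between them. The first annotated transcript of each has 3 exons and 183 coding bases before the stop codon. At 79.2% of those bases the genes are identical, and the longest stretch the 2 first transcripts share is 20 bases long. No 50-base word of either transcript occurs in an annotated transcript of another gene. Gm45774, an antisense RNA gene at chr8:94170748-94173412 on the minus strand, overlaps Mt2 up to 156 bases before the end of Mt2. It is not among the gene entries, and whether counting used strand is not given in the sources used here. The last 156 bases of Mt2, at its 3′ end, and the 3′ end of Gm45774 both lie outside the overlap. The part of Gm45774 in the Mt2 counts was not tested.

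The MREs are shown because the MRE is the element by which metal acts on both genes. Their part in the change with time was not tested. The sequences are those of RefSeq's promoter table for GRCm38.p6, in which both genes were found. Capitals mark each match to the MRE core TGCACNC or TGCGCNC on either strand. The 250 bases before the RefSeq start of Mt2, chr8:94172368-94172617 on the plus strand, lie within Gm45774 and upstream of every annotated model of Mt2.
Mt2: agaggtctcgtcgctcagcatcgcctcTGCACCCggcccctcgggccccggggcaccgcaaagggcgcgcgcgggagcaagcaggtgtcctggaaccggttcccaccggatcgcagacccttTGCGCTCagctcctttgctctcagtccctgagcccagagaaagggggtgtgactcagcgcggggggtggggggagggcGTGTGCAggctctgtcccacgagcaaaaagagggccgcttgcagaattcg

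In the 300-base RefSeq windows, which run on for 50 bases past the annotated start, Mt1 held 3 MRE cores and Mt2 held 4. The sites are set side by side, each read along the strand of its core, with the core in capitals and 4 bases on each side.
Mt1 site 1: gctgTGCACACtggc
Mt1 site 2: gctcTGCACTCcgcc
Mt1 site 3: aaagTGCGCTCggct
Mt2 site 1: cctcTGCACCCggcc
Mt2 site 2: ccttTGCGCTCagct
Mt2 site 3: agccTGCACACgccc
Mt2 site 4: ggccTGCGCACgacc
Of 32851 mouse promoter windows of this length, 25.7% held at least 1 such core, 1.97% held 3 or more and 0.517% held 4 or more. The first Mt1 site, chr8:94179062-94179076, lies before the GENCODE start of Mt1 and inside the RefSeq gene record, which spans all models and opens at base 94178883. The second and the third, chr8:94179087-94179101 and chr8:94179105-94179119, lie in the first exon of the first annotated transcript. They lie before the starts of the other annotated Mt1 transcripts, at bases 94179211 and 94179241. The Mt2 sites lie at chr8:94172391-94172405, chr8:94172486-94172500, chr8:94172564-94172578 and chr8:94172618-94172632, all before the GENCODE start of Mt2. Sites 3 and 4 of Mt2 have their core on the minus strand, and the other 5 have theirs on the plus strand. The clock elements CACGTG (E-box) and TTATGNAA (D-box) had no match in either window, against 7.15% and 3.38% of windows with one. A full palindromic glucocorticoid element was not matched either, and 0.00913% of windows hold one. The antioxidant element TGACNNNGC matched once in Mt2, against 12.4% of windows with a match. The GC-box GGGCGG matched 3 times in Mt1, against 35.7% of windows with at least 1 match and 10.7% with 3 or more. All motifs were searched on both strands, and the matches are descriptions of these letters only.

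The 10 libraries held 18378 cells, 710 to 2860 in each, with 1454623 to 7144803 UMIs per library and a median of 1588 to 2662 UMIs per cell. Levels are given as CPM, counts per 1000000 UMIs of the library. The 10 hepatocyte markers summed to between 51254 and 100456 CPM in each library. Endothelial, macrophage, lymphocyte, neutrophil, stellate and cholangiocyte markers each summed to 32.5 CPM or less. Mitochondrially encoded genes held 12.9% to 24.3% of UMIs, and both extremes were ZT12 libraries. The ZT18 libraries stood apart in that they alone carry sample indices whose labels end in 4 (here called the index column). The 5 erythroid markers in the files summed to 360.5 CPM in 1 of the 2 ZT18 libraries, and the other, at 99.0 CPM, lay within the 72.2 to 107.9 CPM of the remaining libraries. The part of erythroid RNA in the results was not tested. Time and index column therefore cannot be told apart at ZT18, and results that rest on those libraries are given with and without them. The cell columns carry numbers and no barcodes, so barcodes shared by libraries were not counted.

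Mt1 was high at ZT6 and ZT12, low at ZT0 and almost silent at ZT18. At ZT12 the libraries held 616.7 (A), 407.0 (B) and 209.8 (C) CPM, a mean of 411 ± 203 (SD, n = 3). At ZT6 they held 301.9 (A) and 270.4 (B) CPM, a mean of 286 ± 22.2 (SD, n = 2). The ZT12 libraries spread widely, and the lowest of them lay below both ZT6 libraries. At ZT0, Mt1 stood at 39.6 (A), 24.8 (B) and 62.1 (C) CPM, a mean of 42.2 ± 18.8 (SD, n = 3). At ZT18 it stood at 5.34 (A) and 8.08 (B) CPM, a mean of 6.71 ± 1.94 (SD, n = 2), from 17 and 30 UMIs. The order of the times was ZT12, ZT6, ZT0 and ZT18. ZT6 and ZT12 overlapped, and every other pair of neighbouring times was separated in all its libraries.

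Mt2 was lower than Mt1 in every library and fell into the same order. At ZT12 it stood at 153.3 (A), 83.8 (B) and 58.2 (C) CPM, a mean of 98.5 ± 49.2 (SD, n = 3). At ZT6 it stood at 60.9 (A) and 44.0 (B) CPM, a mean of 52.5 ± 11.95 (SD, n = 2). Again only the ZT12 and ZT6 ranges overlapped. At ZT0 the values were 5.24 (A), 3.72 (B) and 16.04 (C) CPM, a mean of 8.33 ± 6.72 (SD, n = 3). At ZT18 the 2 libraries held 1 and 4 UMIs of Mt2 in all, or 0.314 and 1.08 CPM, which is near the level that a count of 3 gives there (0.943 and 0.808 CPM). As each molecule is counted once at its 3′ end, these levels were not divided by transcript length.

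**Figure D1:**
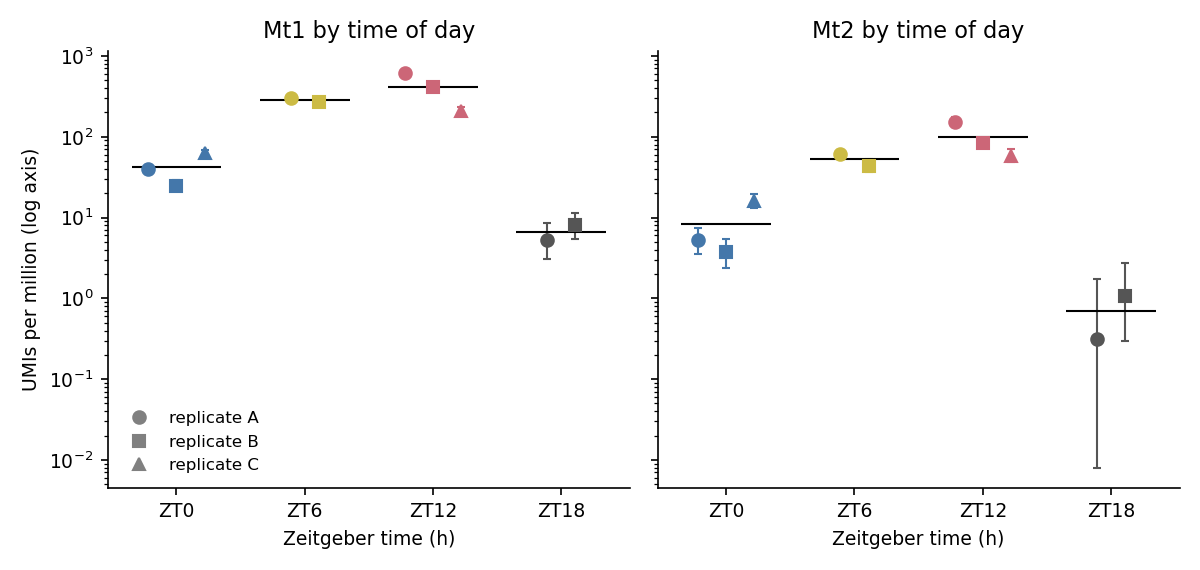
Mt1 (left) and Mt2 (right) in CPM, on a log axis, by zeitgeber time. Each marker is 1 library, its bar the exact 95% Poisson interval for counting error alone, and the black line the mean of the group. Both genes stand highest at ZT12 and ZT6, where the libraries overlap, and lowest at ZT18, where Mt2 rests on 1 and 4 UMIs.

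From ZT18 to ZT12 the pooled Mt1 level was 58.5 times as high, with an exact 95% interval of 43.9 to 79.7 that covers counting error only. The same ratio for Mt2 was 122.1, with a wide interval of 52.1 to 376.8 because ZT18 gave 5 UMIs. From ZT0 to ZT12, where both sides are well counted, the pooled ratios were 9.62 (8.90 to 10.4) for Mt1 and 10.9 (9.13 to 13.0) for Mt2, with overlapping intervals. Between ZT6 and ZT12 the libraries overlapped for both genes, and the pooled ratios were 1.37 and 1.61.

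The rise from ZT0 was also seen among libraries whose sample indices share a column. In column 7, ZT12 replicate B stood 16.4 times above ZT0 replicate B for Mt1, and the 2 ZT6 libraries stood 12.2 and 10.9 times above it. In column 3, ZT12 replicate A stood 15.6 times above ZT0 replicate A. In column 5, the ratio between the C replicates was 3.38, the smallest of the 3. Mt2 gave 22.6, 29.3 and 3.63 for the same ZT12 and ZT0 pairs. The C pair thus had both the highest ZT0 level and the lowest ZT12 level of each gene.

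A 24-h cosine fitted to the library sums placed the peak of Mt1 at ZT 8.21 with an amplitude of 2.93 (log2, from the mean to the peak) and that of Mt2 at ZT 8.72 with an amplitude of 2.74. With both ZT18 libraries left out, the peaks moved to ZT 9.69 and 10.2 and the amplitudes fell to 1.93 and 1.94. The highest mean of both genes was at ZT12, and no time between ZT6 and ZT12 was sampled, so the peak hours are interpolations of the curve. Without ZT18, the times left are as few as the terms of the fit, so its shape could not be checked. The fitted values describe the change for which the genes were picked. Over the libraries Mt1 and Mt2 rose and fell together, with a Pearson r of 0.993 on log2(CPM + 1) over 10 libraries and 0.986 over the 8 without ZT18. All points share their library and its depth between the genes.

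Position in the lobule was read from 16 landmark genes, 8 periportal and 8 pericentral, which include neither metallothionein, and each library's cells were split by it into 3 equal groups, pericentral, middle and periportal. Both genes were higher in periportal than in pericentral cells. Between the outer groups, Mt1 was higher by 1.19 ± 0.15 (log2, model SE from the F statistic, 10 libraries, edgeR quasi-likelihood test with the library as a block, Benjamini-Hochberg adjusted p = 6.4e-08). Mt2 was higher by 1.93 ± 0.18 (edgeR adjusted p = 3.1e-10). This model SE is not the spread between libraries. On log2(CPM + 1), the libraries' own differences ran from -0.145 to 2.08 for Mt1 and from 0 to 3.27 for Mt2. Of the 8906 genes tested beside the landmarks, 24.6% were called in either direction, 11.9% as higher periportally and 12.7% as higher pericentrally. By size of the difference, Mt2 ranked 124 and Mt1 ranked 261 among the 8922 genes of that fit. Scaled by library size alone, which shifts the median of all genes from -0.01 to -0.11, the differences were 1.08 and 1.85.

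The libraries did not all share the difference of Mt1. At ZT12, periportal cells held 854.7 CPM against 252.4 pericentrally in replicate A, 490.2 against 311.8 in B and 301.4 against 72.0 in C. At ZT6 they held 373.5 against 193.5 in A and 343.4 against 152.4 in B. All 5 libraries of the hours of high expression were thus higher periportally. At ZT0, replicate C held 106.6 CPM periportally against 24.4 pericentrally. Replicates A and B were almost level, at 37.0 against 35.2 and 22.4 against 24.7 CPM. At ZT18 the outer groups held between 3 and 9 UMIs each, too few to compare, at 6.82 against 3.06 CPM in A and 6.87 against 7.70 in B.

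For Mt2, 9 of the 10 libraries were higher periportally, and ZT18 replicate A had no Mt2 UMI in either outer group. The periportal level stood at 236.9, 101.7 and 114.5 CPM at ZT12 (A, B and C), against 32.6, 57.9 and 10.96 pericentrally. At ZT6 it stood at 84.3 (A) and 75.0 (B) CPM against 28.0 and 11.9. Unlike Mt1, Mt2 was higher periportally in all 3 ZT0 libraries, at 7.40, 7.77 and 28.3 CPM against 1.55, 1.26 and 3.83, although the pericentral values rest on 3, 3 and 8 UMIs. Replicate B of ZT12 had the smallest difference of the high libraries for both genes, and the C replicates of ZT0 and ZT12 had the largest for Mt1.

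Finer division into 8 layers showed a rise from the central vein that often flattened before the portal end. Layer 1, the most pericentral, held the lowest Mt1 level in 9 of the 10 libraries. At ZT12 replicate A, Mt1 rose from 209.1 CPM in layer 1 to 900.9 in layer 8, a 4.31-fold span. ZT12 replicate B spanned 1.97-fold, and the ZT6 libraries spanned 2.89-fold and 2.87-fold. In replicate C of ZT0 and of ZT12 the highest layers were 7 and 6, at 125.6 and 407.1 CPM, 10.0 and 9.47 times the lowest layer. At ZT0 replicates A and B the highest layers were 5 and 4, in the middle of the lobule, at 59.6 and 35.8 CPM. The steepest Mt2 span with UMIs in every layer was at ZT12 replicate A, where it rose from 11.3 CPM in layer 1, from 2 UMIs, to 251.0 in layer 7.

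**Figure D2:**
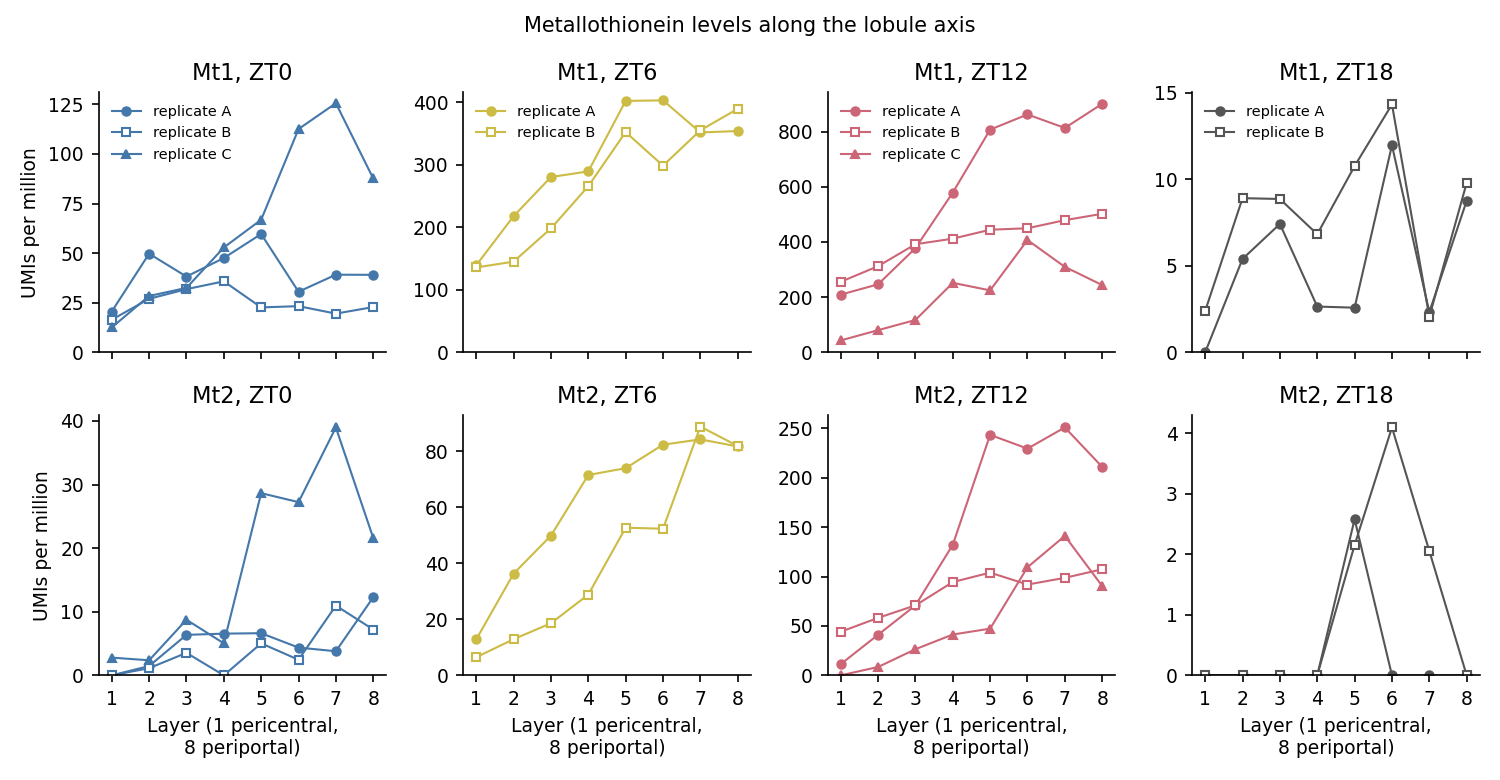
CPM of Mt1 (top) and Mt2 (bottom) in 8 equal layers of each library's cells, ordered from pericentral (1) to periportal (8), with 1 line per library and a panel per time. The vertical axes differ between panels. At ZT6 and ZT12 layer 1 is lowest in every library, while ZT0 replicates A and B peak in middle layers for Mt1.

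The share of mitochondrially encoded UMIs moved with position too, from 14.0% in layer 1 to 18.4% in layer 8 at ZT0 replicate A and from 21.6% to 25.5% at ZT12 replicate A. With those genes left out before scaling, a setting added after the data were seen, the zone differences were 1.19 for Mt1 and 1.93 for Mt2. Without both ZT18 libraries they were 1.21 and 1.93. Leaving out each library in turn gave 1.07 to 1.30 for Mt1 and 1.79 to 2.51 for Mt2, all called by edgeR.

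Because the zone difference was larger for Mt2, the split between the genes was compared within libraries, a comparison that restates that difference and is given as a description with no test. Mt2 made up 19.1% ± 7.72 (SD, n = 10 libraries) of the UMIs of both genes in periportal cells and 8.28% ± 5.79 in pericentral cells. The difference was 10.8 ± 7.88 percentage points. The share was higher periportally in 9 of 10 libraries and level at 0 in ZT18 replicate A. Without the ZT18 libraries it was higher in 8 of 8, by 10.4 ± 5.85 points. ZT12 replicate B, the library with the most UMIs of both genes, had the smallest difference of those 8, 17.2% against 15.7%.

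Over whole libraries the Mt2 share lay between 5.56% and 21.7%. It was 19.6% ± 2.34 at ZT12 (SD, n = 3), 15.4% ± 1.97 at ZT6 (n = 2) and 15.1% ± 4.77 at ZT0 (n = 3). The ZT18 shares of 5.56% and 11.8% come from 18 and 34 UMIs, with Wilson 95% intervals of 0.988% to 25.8% and 4.67% to 26.6%. Those intervals, which cover counting error only, reach the shares of the other times.

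**Figure D3:**
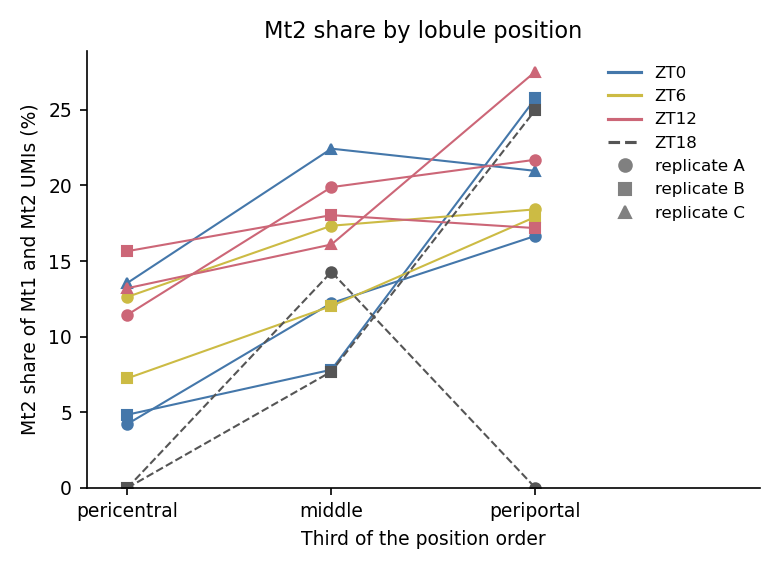
Mt2 as a percent of the UMIs of Mt1 and Mt2 together in the pericentral, middle and periportal group of cells, with 1 line per library, coloured by time and dashed at ZT18. In the 8 libraries of ZT0, ZT6 and ZT12 the periportal group lies above the pericentral group.

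Whether the zone difference followed the time of day was tested with a zone-by-cosine term. It did not pass for either gene: the fitted amplitude of the zone difference was 0.28 for Mt1 (log2, edgeR adjusted p = 0.923) and 0.64 for Mt2 (edgeR adjusted p = 0.885). Across all genes 0.0337% passed, 3 of 8906. The Mt1 result turned on 1 library. Without ZT0 replicate C, whose periportal rise was the steepest at ZT0, the amplitude of Mt1 was 0.80 with an edgeR adjusted p of 0.0299, and 36 genes passed in all. An equal zone difference at all times was therefore not shown, nor was a difference between times.

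In single cells, Mt1 UMIs reached a larger share of cells at the hours of high level. After each cell was thinned to 1000 UMIs, a depth that 0 cells fell short of, Mt1 was seen in 37.5%, 28.6% and 17.3% of cells at ZT12 (A, B and C) and in 21.7% and 22.1% at ZT6 (A and B). At ZT0 the shares were 3.70%, 2.45% and 5.63%, and at ZT18 0.477% and 0.616%. Without thinning they were 26.4% to 54.3% at ZT12, 32.9% and 37.6% at ZT6, 5.17% to 14.5% at ZT0 and 1.01% and 1.68% at ZT18. Groups kept the order of the CPM. The files hold hepatocytes alone, so no cell type that lacks Mt1 gave a background share for free RNA, and its part in these shares was not tested.

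The spread among cells was wider than a random (Poisson) one, to a degree that differed between the libraries of ZT6 and ZT12. If the thinned Mt1 UMIs of ZT12 replicate A had fallen at random on its 710 cells, 43.2% of cells would have held at least 1, against 37.5% observed. At ZT6 replicate A, 24.5% would have, against 21.7%, and at ZT12 replicate B, 31.3% against 28.6%. At ZT6 replicate B, 23.2% would have, against 22.1%, and at ZT12 replicate C, 18.7% against 17.3%. In both, the Wilson 95% interval of the observed share holds the share expected at random. The variance of Mt1 UMIs over cells was 1.51 times the mean in ZT12 replicate A, 1.41 in ZT6 replicate A, 1.30 in ZT12 replicate B, 1.20 in ZT12 replicate C and 1.13 in ZT6 replicate B. Computed within the 3 position groups it was 1.35, 1.37, 1.28, 1.12 and 1.09 in the same order. A value of 1 is what counting alone gives. The ratio also depends on the mean, which ran from 0.207 thinned Mt1 UMIs per cell in ZT12 replicate C to 0.566 in ZT12 replicate A. The ZT18 libraries, with 8 and 11 cells that held Mt1, lay at 0.996 and 0.994. No cell there held more than 1 thinned Mt1 UMI, so these values had to lie near 1 and say nothing of the spread. The most Mt1 UMIs in a thinned cell were 8, reached in ZT6 replicate A, ZT12 replicate A and ZT12 replicate B.

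Mt1 and Mt2 were found in the same cell more often than their shares alone would give. At ZT6 replicate A, 59 cells held both, against 27.8 expected from the separate shares, and at ZT12 replicate A, 50 against 30.3. ZT12 replicate B had 70 against 49.5, ZT6 replicate B 20 against 12.6 and ZT12 replicate C 14 against 9.34. All 5 libraries lay on the same side. Across cells, the Pearson r of the thinned UMIs of the genes was 0.336 in ZT12 replicate A and 0.213 within the 3 position groups there. In ZT12 replicate C it was 0.0323, so the link between the genes in single cells was weak at this depth.

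**Figure D4:**
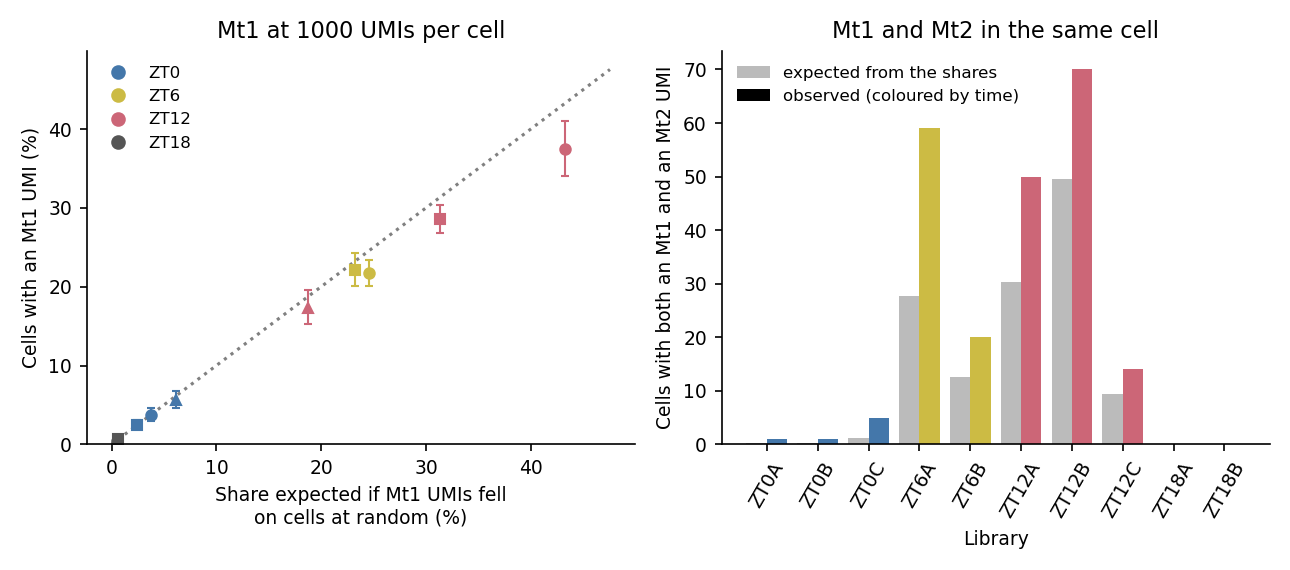
Left, the percent of cells with an Mt1 UMI after thinning to 1000 UMIs (vertical, Wilson 95% interval) against the percent expected if UMIs fell on cells at random (horizontal), with 1 marker per library and the dotted line at equality. Right, the number of cells with UMIs of both genes (coloured) and the number expected from the separate shares (grey) in each library. The libraries of ZT6 and ZT12 lie below the dotted line and their coloured bars above the grey ones.

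Of a list of 23 genes that move and sense zinc, 17 were measured well enough to be tested, and 1 of them passed the rhythm test. Of all 8907 genes 5.13% passed, so the count is near the background. That gene was Slc30a10, which encodes an exporter of manganese in the zinc transporter family. It stood at 52.7 ± 3.51 CPM at ZT0 (SD, n = 3), 32.0 ± 7.58 at ZT6 (n = 2), 16.5 ± 5.48 at ZT12 (n = 3) and 50.5 ± 5.08 at ZT18 (n = 2), a 3.76-fold fitted span that peaked at ZT 22.5 (edgeR adjusted p = 0.0084). The median amplitude of the list was 0.25, equal to that of all genes. Mtf1, the zinc sensor, lay at 12.4 ± 0.855, 11.6 ± 1.13, 14.2 ± 4.21 and 18.9 ± 0.000258 CPM at ZT0, ZT6, ZT12 and ZT18 and did not pass (edgeR adjusted p = 0.211). Slc30a1, the zinc exporter of the plasma membrane and an MTF1 target, lay at 34.5 ± 2.94, 33.2 ± 10.3, 35.1 ± 4.49 and 50.0 ± 0.922 CPM (edgeR adjusted p = 0.259). Slc39a14, an importer that inflammation induces in the liver, lay at 79.4 ± 23.6, 99.7 ± 8.74, 120.8 ± 9.74 and 84.5 ± 8.86 CPM (edgeR adjusted p = 0.297).

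By position, 5 of the 17 zinc genes were higher periportally and 0 were higher pericentrally, against 11.9% and 12.7% of all genes, with a list median of 0.21 against -0.01 for all genes. Under scaling by library size alone, 3 were higher and 1 was lower. Slc30a10 differed most, by 0.78 ± 0.10 (log2, edgeR adjusted p = 1.8e-07), and was higher periportally in 10 of 10 libraries. Slc39a8 and Slc39a14, importers of zinc, manganese and iron, were higher by 0.48 ± 0.14 and 0.46 ± 0.09 (edgeR adjusted p = 0.0089 and 8.5e-05). Slc39a4, a zinc importer, was higher by 0.38 ± 0.11 (edgeR adjusted p = 0.0066), and the fifth, Slc30a9, by 0.29 ± 0.10 (edgeR adjusted p = 0.0327). Of the 10 libraries, Slc39a8 was higher periportally in 9, Slc39a14 and Slc39a4 in 8 each and Slc30a9 in only 6. Mtf1 and Slc30a1 differed by 0.00 ± 0.14 and -0.02 ± 0.09 and were not called. None of the 17 reached the difference of Mt1. Mt3 and Mt4, the other mouse metallothioneins, and Slc30a2 are not among the gene entries used here.

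**Figure D5:**
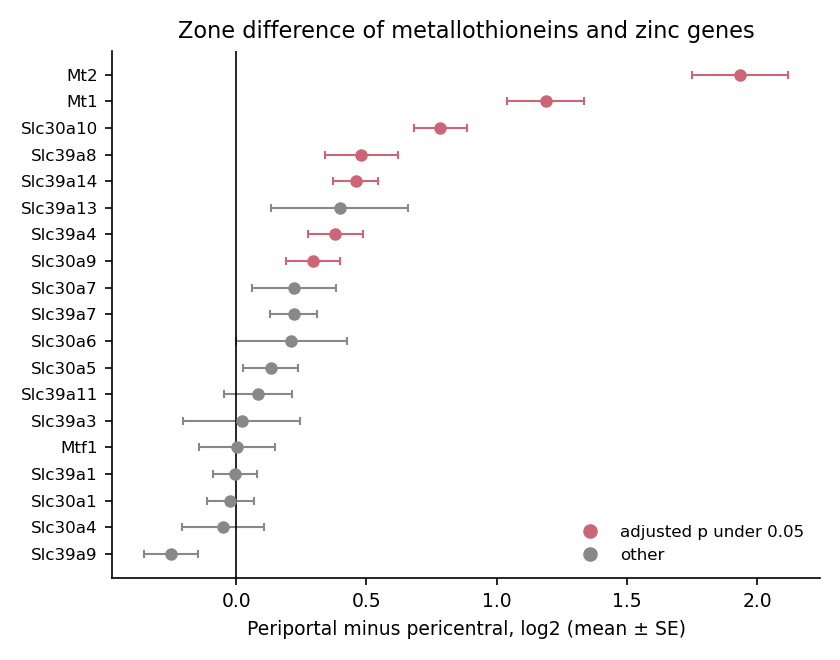
Periportal minus pericentral difference on the log2 scale, fitted over 10 libraries, for Mt1, Mt2 and the 17 zinc genes tested. Bars are the model standard error from the F statistic, not the spread between libraries. Red marks an edgeR adjusted p under 0.05. Mt2 (1.93) and Mt1 (1.19) lie to the right of every zinc gene, and Slc30a10 (0.78) comes next.

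Copper is the other metal that metallothioneins hold in the liver. Of 13 copper-handling genes tested, 1 passed the rhythm test, near the background of 5.13%. This was Sco2, a copper chaperone of cytochrome oxidase, which peaked at ZT 2.76 (2.35-fold from trough to peak, edgeR adjusted p = 0.0123), and 0 of 14 passed without the ZT18 libraries. By position 4 were higher periportally and 3 pericentrally, against 11.9% and 12.7% of all genes. Steap3 (0.84), Sco2 (0.49) and the copper exporter Atp7b (0.41) were higher periportally on the log2 scale, and the chaperone Atox1 was lower (-0.41).

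Of 16 genes that glucocorticoids induce, 5 passed the rhythm test, against 5.13% of all genes, with a median amplitude of 0.69 against 0.25 for all genes. Per1, a clock repressor with a glucocorticoid element, peaked at ZT 10.3 with a 7.15-fold span (edgeR adjusted p = 0.0018). Fkbp5, a brake on the glucocorticoid receptor, peaked at ZT 11.9 with a 4.51-fold span (edgeR adjusted p = 0.0142), and Zbtb16 at ZT 13.9 with a 5.18-fold span (edgeR adjusted p = 0.0490). Cdkn1a, a cell cycle inhibitor, went the other way, peaking at ZT 21.4 with a 16.7-fold span (edgeR adjusted p = 0.0068). The fifth was Pck1, of gluconeogenesis, which peaked at ZT 10.2 (3.41-fold span, edgeR adjusted p = 0.0092). Tsc22d3, a direct glucocorticoid target, did not pass (edgeR adjusted p = 0.727) and is named here after its values were seen. It lay at 118.4 ± 56.2, 32.1 ± 12.6, 217.0 ± 127.3 and 56.6 ± 16.004 CPM at ZT0, ZT6, ZT12 and ZT18, lowest at ZT6. Klf9, also named after its values were seen, did not pass either (edgeR adjusted p = 0.681) and was highest at ZT6. It lay at 113.7 ± 44.2, 186.2 ± 1.60, 129.3 ± 31.2 and 131.5 ± 12.2 CPM at the same times. The part of glucocorticoids in the metallothionein levels was not tested. By position 7 of the 16 were higher periportally, led by Sds (3.13), Pck1 (1.05), Sgk1 (0.85) and Tat (0.66), and 2 were lower, against 11.9% and 12.7% of all genes, with a list median of 0.25 against -0.01 for all genes.

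Acute phase genes, which the liver makes in inflammation, were mostly periportal. Of 22 tested by position, 15 were higher periportally and 0 pericentrally, against 11.9% and 12.7% of all genes, with a list median of 0.53. The largest differences were those of Hpx, which binds haem (1.52 ± 0.08), of the serum amyloid genes Saa2 (1.15 ± 0.15) and Saa1 (0.86 ± 0.09) and of Itih4 (0.78 ± 0.08). By time 1 of 23 passed, near the background of 5.13%. It was Hamp2, a hepcidin-related gene, which peaked at ZT 4.83 with a 7.57-fold span (edgeR adjusted p = 0.0041). Saa1 and Saa2 were not called by time (edgeR adjusted p = 0.715 and 0.543).

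Of 16 genes of the fasting response, 5 passed the rhythm test, against 5.13% of all genes. Cpt1a of fatty acid uptake into mitochondria peaked at ZT 10.6 (3.17-fold span, edgeR adjusted p = 0.0019) and the coactivator Ppargc1a at ZT 10.1 (2.62-fold span, edgeR adjusted p = 0.0083), as Pck1 did. Ehhadh of peroxisomal fat oxidation peaked at ZT 19.6 (edgeR adjusted p = 0.0274), and the fifth, the lipid droplet gene Plin2, at ZT 1.41 (edgeR adjusted p = 0.0234). By position 4 were higher periportally (11.9% of all genes were), among them Ppargc1a (1.73), and 8 pericentrally (12.7% of all genes), among them Acot1 (-3.39), Cyp4a10 (-2.78) and Cyp4a14 (-2.48).

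Of 17 genes of the oxidative stress response 1 passed by time, near the background of 5.13%. It was Osgin1, which peaked at ZT 0.407 (edgeR adjusted p = 0.0455), and 0 passed when scaled by library size alone. By position 2 were higher periportally (11.9% of all genes), among them Gss (0.71), and 7 pericentrally (12.7%), among them Nqo1 (-0.90), Gsr (-0.48) and Txnrd1 (-0.41). Of 15 genes that tissue dissociation induces, 1 passed by time, again near 5.13%. It was the chaperone Hsph1, which peaked at ZT 18.4 with a 6.66-fold span (edgeR adjusted p = 0.0044), and 3 of 15 passed without the ZT18 libraries. By position 5 were higher periportally (11.9% of all genes), among them Klf6 (0.80), Btg2 (0.75) and Fos (0.74), and 2 pericentrally (12.7%), among them Hspa1b (-1.56). Whether dissociation touched the metallothionein levels was not tested.

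The genes whose levels over the 10 libraries were most like the mean of Mt1 and Mt2 were ranked by Pearson r on log2(CPM + 1) among the 4339 genes whose mean reached 20 CPM. The 8 highest were Narf (0.942), the sterol transporter Abcg8 (0.937), the RNA-binding gene Rbms1 (0.930), Drg1 (0.930), Eif1ad (0.921), the seryl-tRNA synthetase Sars (0.919), Abca8a (0.918) and 1810058I24Rik (0.914). Over the 8 libraries without ZT18 the r of these genes lay between 0.805 for Sars and 0.936 for Eif1ad. The fitted amplitudes of these 8 genes lay between 0.26 and 1.27 (log2), below those of Mt1 and Mt2. Narf went from 20.4 ± 1.87 CPM at ZT0 to 37.9 ± 1.03 at ZT6 and 48.9 ± 7.19 at ZT12. By position Abca8a (0.33) was higher periportally, and Rbms1 (-0.37), Abcg8 (-0.73) and 1810058I24Rik (-1.55) were higher pericentrally. The 4 lowest r were those of the chaperone Hspa4l (-0.953), the nuclear import receptor Kpnb1 (-0.927), AI182371 (-0.924) and the chaperone partner Fkbp4 (-0.918). Across the 710 cells of ZT12 replicate A, the 1 library with a mean of at least 0.5 thinned Mt1 UMIs per cell, the genes with an r of at least 0.2 to the thinned metallothionein UMIs, on a log2 scale, were Alb (0.270), Apoa1 (0.221) and Sds (0.206). The lowest r were those of Cyp3a11 (-0.248) and Cyp2c50 (-0.242). Position was not removed from these values, and Sds was strongly periportal (3.13).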

How the data were processed

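The authors deposited whole-number UMI counts per gene and cell, 1 table per library, which were used as counts. Cell Ranger and the builds mm10 and hg19 are named in the submitters' processing notes, with no role or version. The annotation and the filters on cells are not given in the sources used here, and no doublets were removed. Mt1 and Mt2, the gene lists and the named-gene rule were chosen with earlier results of these data known.

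Counts were summed per library (replicate), or per library and outer group of 3 by position. The position score is the mean standardised log level of 8 periportal landmarks (Asl, Ass1, Ctsc, Cyp2f2, Ftcd, Hal, Hsd17b13, Pigr) less the same mean over 8 pericentral ones (Aldh1a1, Cyp1a2, Cyp2e1, Gulo, Lect2, Mgst1, Oat, Rgn), ranked within a library, so groups and layers are relative to its own cells. Genes whose mean reached 3 CPM were tested in edgeR 4.0.16 (R 4.3.3; TMM, quasi-likelihood F tests, Benjamini-Hochberg over all genes, threshold 0.05), with DESeq2 1.42.0, limma 3.58.1 and other settings as alternatives. The rhythm test is a 24-h cosine and sine, and the zone tests keep the library as a block. Fits were run on simulated counts with the same dispersion for every gene and no effect of library, letter or index column. Those runs cannot show how the calls hold in these libraries. Per-cell values used 1000 UMIs drawn from each cell. Depths of 1454623 to 7144803 UMIs give 1 UMI as 0.140 to 0.687 CPM. Intervals cover counting error only. No 2 libraries of a time agreed within sampling noise (chi-square over degrees of freedom 5.30 to 63.6).

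Named are, from each list, genes called by the rhythm or zone test, up to the 4 largest in each, with Mtf1, Slc30a1 and Slc39a14 always, and the 8 highest and 4 lowest genes by likeness.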

Additional observations from a re-analysis of the deposited data

How the results depend on the processing

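The zone differences of Mt1 and Mt2 kept their direction under all 23 alternatives (1.07 to 1.62 and 1.67 to 2.54, log2) and their call under 22. They lost it with a replicate block of the letters A, B and C in place of the library, which leaves the time differences in the error (1.39, adjusted p = 0.327, and 2.15, adjusted p = 0.102). The zone-dependent rhythm of Mt1 ranged from 0.094 to 0.80 with 1 library left out, and passed (adjusted p = 0.0299) only without ZT0 replicate C. With a replicate block, its amplitude was 0.57 (adjusted p = 0.308). The ZT12 to ZT18 differences of 5.94 (Mt1) and 7.14 (Mt2, log2) moved by less than the spread between libraries under all 9 alternatives each. No within-column value could be had, since ZT18 has its own column.

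The count of rhythmic genes, 457, was 791 by DESeq2, 709 with no filter, 283 from 20 CPM, 231 without both ZT18 libraries, 749 with a replicate block and 228 to 465 with 1 library left out (272 without ZT6 replicate B, 300 without ZT12 replicate B, 228 and 249 without ZT18 replicate A or B). The count by zone, 2194, was 771 with the replicate block. Scaled by library size alone it was 2524, of which 701 were higher periportally and 1823 pericentrally, against 1059 and 1135. For zone-dependent rhythm, the 3 calls (541 genes at an unadjusted p under 0.05) were 5 by library size alone, 0 by DESeq2 and limma-voom, 39 with no filter, 0 from 20 CPM, 1 without both ZT18 libraries, 32 with a replicate block and 0 to 36 with 1 library left out, highest without ZT0 replicate C. The letters did not pair the libraries throughout: same-letter libraries deviated together between ZT0 and ZT12 (r 0.28 to 0.63) and not between ZT0 and ZT6 (-0.12 and -0.05). At ZT0 and ZT12 the letters A, B and C go with index columns 3, 7 and 5, while both ZT6 libraries are in column 7. Letter and index column therefore cannot be told apart between ZT0 and ZT12. The main rhythm test took neither into account. Depth limits Mt2 most, with 5 UMIs at ZT18 and 3 to 8 in the pericentral groups at ZT0.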

Other observations

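Cells with a metallothionein UMI were set beside cells of the same layer without one in the 5 libraries of ZT6 and ZT12, among the 2294 genes whose mean reached 50 CPM. This comparison was chosen after the data were seen and is given as a description with no test, and cells of 1 layer can still differ in position. Of all genes, 5.10% were higher and 6.36% were lower in all 5 libraries. Saa1, an acute phase protein, had the largest mean difference among the former, 0.60 ± 0.49 (log2, SD over 5 libraries), with 1.31 and 0.38 at ZT6 (A and B) and 0.84, 0.41 and 0.05 at ZT12 (A, B and C). Its relative Saa2 had a larger mean, 1.27 ± 1.23, but was not consistent. Its values ran from -0.07 to 2.55, with the same sign in only 3 of the 5 libraries. The serine dehydratase Sds (0.31 ± 0.12) and the glutathione transferase Gstp1 (0.32 ± 0.11) varied less between libraries. Sult1d1 (-0.41 ± 0.38) and the pericentral Cyp2c37 (-0.39 ± 0.26) were lower in all 5. Of 18 acute phase genes measured, 5 were higher in all 5 libraries (Saa1, Fgb, Orm1, Hamp and Itih4) and 0 were lower. Of 11 oxidative stress genes, 0 were higher and 3 were lower (Gclm, Gsr and Cat).

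Cells with many metallothionein UMIs were few, and in 1 library they carried much serum amyloid RNA. At ZT6 replicate A, 15 of 2420 cells held 4 or more thinned UMIs of Mt1 and Mt2. Of these, 8 held a Saa1 or Saa2 UMI (53.3%), with a mean of 4.07 such UMIs per cell, against 12.4% and 0.167 in the 1826 cells without a metallothionein UMI. The 448 cells with 1 metallothionein UMI were not above those, at 9.82% and 0.158. The 131 cells with 2 or 3 stood at 20.6% and 0.687, and 1 of them held 28 of their 90 Saa1 and Saa2 UMIs. The 15 cells with 4 or more held 61 of the library's 527 Saa1 and Saa2 UMIs, and 1 cell held 22 of the 61. At ZT12 the classes of 4 or more and of none gave 5 of 20 cells (25.0%) against 12.6% in replicate A. In replicate B they gave 3 of 17 cells (17.6%) against 9.52%. At ZT6 replicate B, 0 of 2 cells with 4 or more held a Saa1 or Saa2 UMI. In ZT12 replicate C, 54.8% of cells without a metallothionein UMI already held a Saa1 or Saa2 UMI, and only 1 cell held 4 or more of the metallothioneins. The classes were chosen after the values were seen, and doublets in them were not tested.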
